A study of Mus musculus with 12 samples.

Results

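The 40 genes described here encode the machinery of macroautophagy and its cargo receptors, and they were taken by symbol from a fixed list of names and joined by Ensembl gene ID to the 55414 gene IDs of the count table. The list was chosen with earlier results of these data known. All 40 were found, and all 40 were among the 14310 genes with enough counts to be tested. They were measured by RNA-seq in macrophages recruited to ischemic mouse muscle, with 3 libraries for each of 4 time points, namely 1, 2, 4 and 7 dpi (days post injury), 12 in all. The mice were young adult C57BL6J wild type males, whose femoral artery had been ligated and excised, and the cells were sorted from digested calf muscle as living CD45+CD11b+F4/80+CD64+ cells. Every group had undergone ischemia, so each value is set against another time point and never against uninjured muscle. Whether mice were pooled for a library is not stated, and the spread between libraries on which all P values rest may therefore be technical.

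In autophagy, a cup-shaped membrane closes around cytoplasm, organelles or microbes to form an autophagosome, which then fuses with a lysosome. The ULK1 kinase complex starts the process, a class III phosphatidylinositol 3-kinase complex marks the site with the lipid PI3P, and lipid transfer proteins enlarge the membrane. The enzymes of a ubiquitin-like conjugation system attach ATG8 proteins (LC3 and GABARAP) to that membrane, where cargo receptors dock, and ATG4 proteases prime and release the ATG8 proteins. In macrophages the pathway is known for clearing intracellular bacteria and damaged mitochondria, and for restraining inflammasome activity. Messenger RNA levels, as measured here, do not report how much cargo is degraded, and with a bulk library a lower value cannot be told apart from fewer cells that express the gene.

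Total counts were 19528316 to 33599472 per library, of which a single gene without a symbol took 14.8% to 55.7%, least at 7 dpi. Without that gene, 8992759 to 18581365 counts remained per library. Levels are given as CPM, the share of a library's counts after TMM scaling. The TMM factors were 0.652 to 0.725 at 1 dpi and 1.35 to 1.70 at 7 dpi, so comparisons of levels between days rest on this scaling. Counts of 1 to 20 were even numbers in 76.6% to 85.5% of cases per library, so small counts may overstate the number of fragments. All 8 macrophage and leukocyte markers were detected, with a summed level of 5657 to 14820 CPM, of which Lyz2 alone gave 3009 to 11688. They did not move together from 1 to 7 dpi (edgeR, FDR under 0.05). Itgam fell from 169 to 191 CPM to 31.1 to 44.3, and Fcgr1 from 374 to 525 CPM to 118 to 164. Adgre1, Ptprc, Csf1r, Mertk and Lyz2 rose, and Cd68 did not pass. The summed level of 6 fibroblast markers was 14.4 to 50.6 CPM at 1 dpi and 27.4 to 43.3 at 2 dpi, and it reached 131.5 to 255.5 at 4 dpi and then 408.9 to 831.2 at 7 dpi. The summed level of 10 muscle fibre markers was 6.0 to 17.2 CPM up to 4 dpi and 41.8 to 105.4 at 7 dpi. Acta1 gave 24.4 to 60.9 CPM of the 7 dpi sum. From 1 to 7 dpi Acta1, Ckm, Tnnt3, Mylpf, Actn3 and Tnni2 rose, while Myh1, Myh2 and Myh4 did not pass. Mb had too few counts to be tested. Of the fibroblast markers, Col1a1, Col1a2, Col3a1, Dcn and Lum rose between these days and Pdgfra did not pass (FDR = 0.381). The 10 neutrophil markers summed to 127.8 to 298.5 CPM at 1 dpi and 43.0 to 157.4 at 7 dpi, where nearly all of the sum came from Mmp9 and Csf3r. S100a8 was at 10.6 to 38.7 CPM at 1 dpi and 0 in each 7 dpi library, S100a9 at 5.45 to 18.1 and at most 0.0565, and Cxcr2 at 6.46 to 26.9 and at most 0.162. Ly6g, which defines neutrophils, had 6 counts in all, every one at 1 dpi, and Camp was at 0 in every library. Mmp9 and Csf3r did not pass from 1 to 7 dpi (FDR = 0.273 and 0.765). Csf3r fell from 1 to 2 dpi (log2FC = -1.04, FDR = 0.00305) and rose from 2 to 4 dpi (log2FC = 1.18, FDR = 0.000879). Endothelial markers summed to 23.6 to 77.4 CPM and lymphocyte markers to 1.2 to 9.5 CPM. The summed levels of fibroblast and muscle fibre markers thus rose with time. Of the neutrophil markers, S100a8, S100a9 and Cxcr2 fell after 1 dpi, while Mmp9 and Csf3r were not called lower at 7 dpi. The part of these cell types in the changes reported below, the falls from 1 dpi and the changes towards 7 dpi included, was not tested.

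Most of the autophagy genes varied over the week, with modest amplitude. Over the whole course, 30 of 40 passed the test for any change in time (edgeR, 3 contrasts together, FDR under 0.05), beside 61.5% of all genes tested. The ratio of the highest to the lowest daily mean had a median of 1.84 among the 40 genes and 2.39 among 13950 genes with no mean of 0. The daily mean was highest at 4 dpi for 15 of the 40 genes (37.5%), where 21.0% of all genes tested had their maximum, and lowest at 1 dpi for 17 (42.5%, beside 29.5% of all genes). The 40 genes together took 1331 to 1760 CPM per library, with the highest sum in 4 dpi replicate 2 and the lowest in 7 dpi replicate 2.

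**Figure D1:**
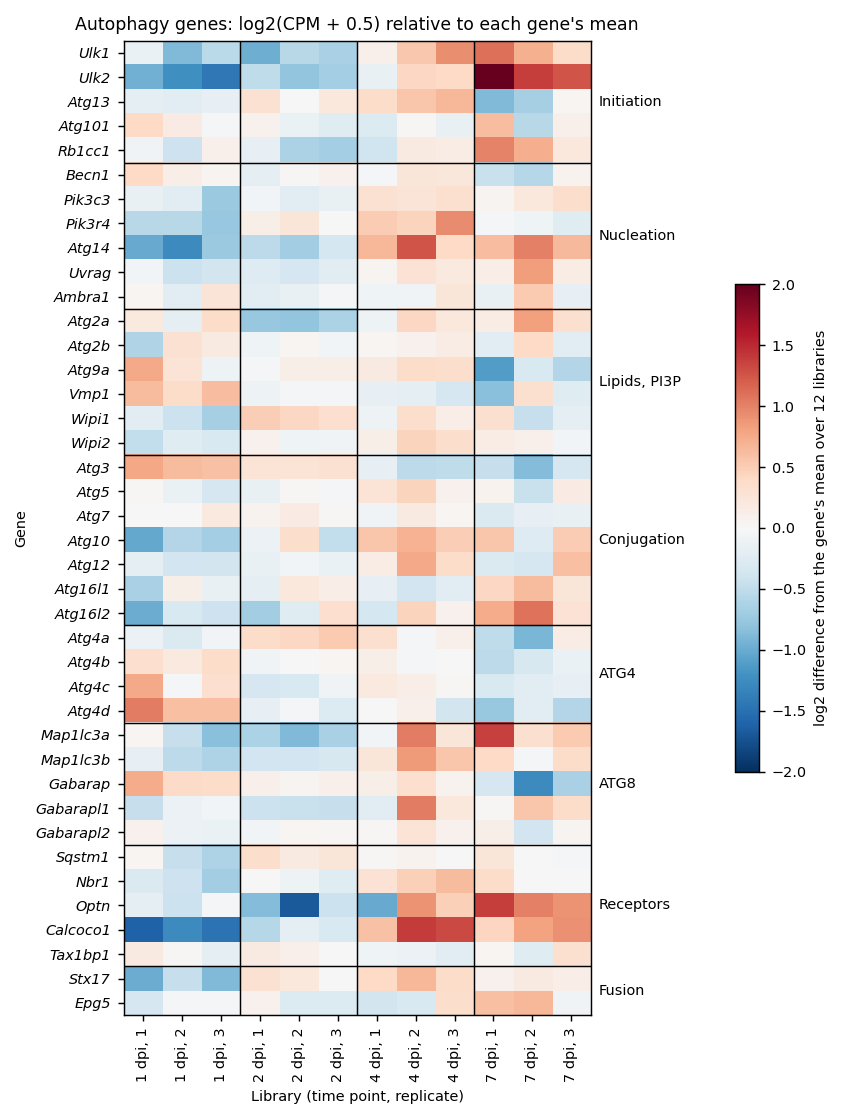
The 40 autophagy genes (rows, grouped by role) in the 12 libraries (columns, by time point and replicate). Colour is log2(CPM + 0.5) minus the mean of that gene over all libraries, from -2 (blue) to 2 (red), and Ulk2, Atg14 and Calcoco1 go from blue at 1 dpi to red at 4 or 7 dpi, while Atg3, Atg4d and Gabarap go the other way.

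From 1 to 2 dpi, 6 of the 40 genes passed an FDR of 0.05 (4 higher, 2 lower), beside 12.5% of all genes tested (6.89% higher and 5.6% lower). From 2 to 4 dpi it was 12 genes, 11 higher and 1 lower, beside 19.5% of all genes (10.8% higher and 8.7% lower). From 4 to 7 dpi it was 7 genes, 3 higher and 4 lower, beside 25.5% (10.9% higher and 14.6% lower). The step from 2 to 4 dpi was thus the one in which the autophagy genes were mostly called in a single direction, and their median log2FC there was 0.32, beside 0.04 over all genes. In the other steps the medians were 0.04 (0.01 over all genes) from 1 to 2 dpi and -0.17 (-0.03) from 4 to 7 dpi. Between the first and the last day, 16 genes were higher and 8 lower at 7 dpi, beside 48.2% of all genes (25% higher and 23.3% lower), with a median log2FC of 0.39 against 0.16. These comparisons share libraries and are not independent of each other.

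With the threshold of an absolute log2FC above 1 as well, the genes called differentially expressed (DEGs) were few. From 1 to 2 dpi only Calcoco1 met it, by an increase, while 9.06% of all genes were DEGs (5.09% upregulated and 3.97% downregulated). From 2 to 4 dpi Ulk1, Atg14, Map1lc3a, Optn and Calcoco1 were upregulated, beside 11.9% of all genes as DEGs (8.02% upregulated and 3.88% downregulated). From 4 to 7 dpi Ulk2 was upregulated and Atg13 downregulated, beside 12.6% of all genes (7.44% upregulated and 5.2% downregulated). From 1 to 7 dpi 8 of the 40 genes were upregulated and 4 downregulated, beside 33.7% of all genes (19.7% upregulated and 14% downregulated). Libraries did not overlap between 2 and 4 dpi for 21 genes that were higher (22.3% of all genes) and 5 that were lower (21.8%). From 4 to 7 dpi this held for 4 higher genes (19.3%) and 8 lower ones (20.7%). From 1 to 2 dpi it held for 13 and 8 (20.9% and 18.5%), and from 1 to 7 dpi for 18 and 8 (30% and 25.9%).

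**Figure D2:**
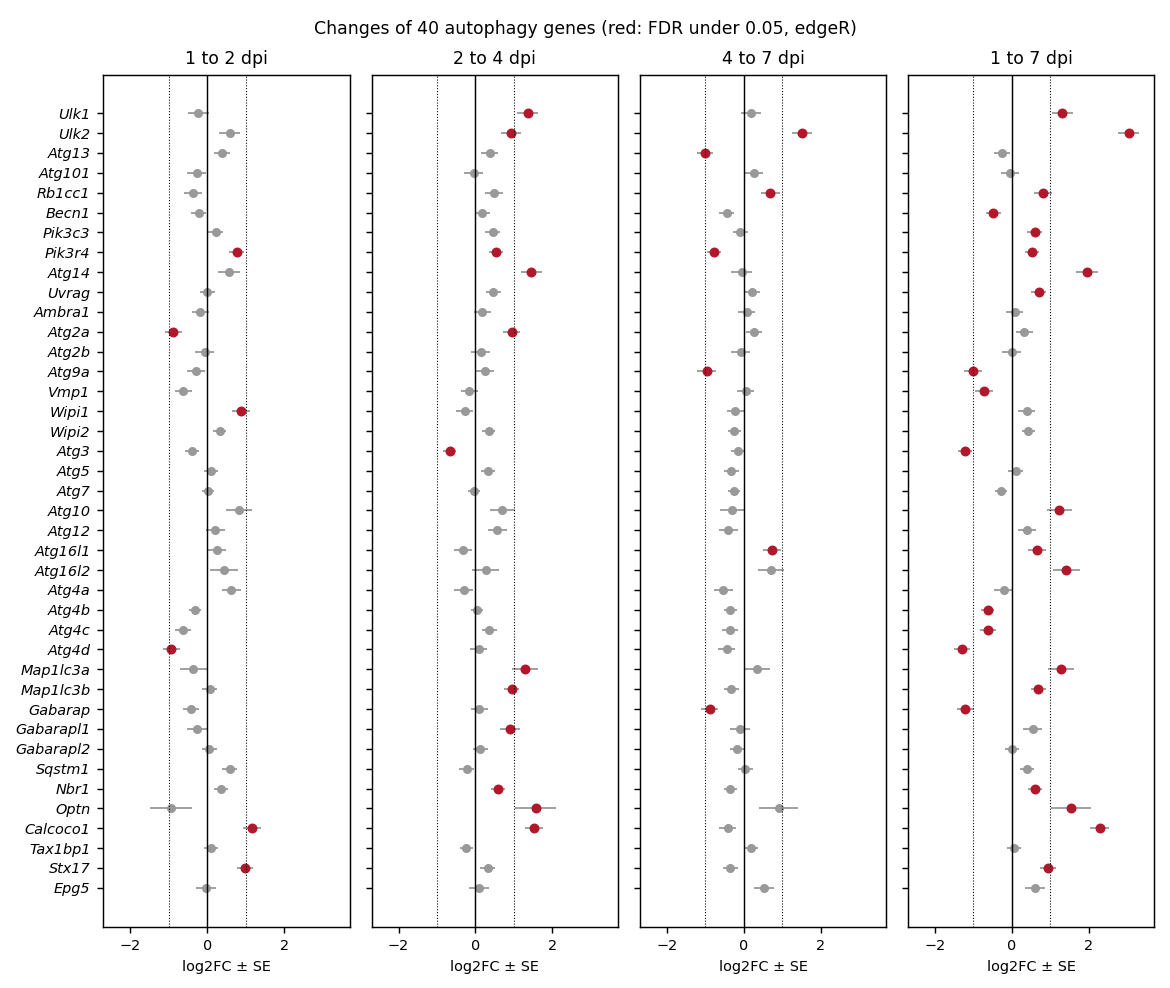
Log2FC with its SE (x-axis) of each of the 40 autophagy genes (y-axis) in 4 comparisons of time points, from the edgeR fit of all 12 libraries (n = 3 per time point). Red points passed an FDR of 0.05, grey points did not, and dotted lines mark a log2FC of -1 and 1. Of the 12 red points from 2 to 4 dpi, 11 lie to the right of 0.

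The promoters of 4 genes whose change between 1 and 7 dpi passed the DEG thresholds are shown, 3 upregulated (Calcoco1, Ulk2 and Atg14) and 1 downregulated (Atg3), to set beside the values that follow. Each runs 5′ to 3′ on the strand of the gene, from 250 bases before to 50 bases after the start, and was taken from RefSeq (GRCm38.p6), in which 33 of the 40 genes had an entry. Capitals mark GTCACGTG, which holds the E-box CACGTG in the form bound by the lysosome and autophagy regulators of the MiT/TFE family, or, in Ulk2, TGACNNNGC, the core of the antioxidant response element bound by NRF2. Both motifs were searched on both strands. Among the 12 DEGs between 1 and 7 dpi, only Ulk2, Atg14 and Atg3 had a match to either motif, and all of these are shown. The other DEGs had no match or no entry, so the 4 promoters do not represent the 12.
Calcoco1, chr15:102722129-102722428, minus strand: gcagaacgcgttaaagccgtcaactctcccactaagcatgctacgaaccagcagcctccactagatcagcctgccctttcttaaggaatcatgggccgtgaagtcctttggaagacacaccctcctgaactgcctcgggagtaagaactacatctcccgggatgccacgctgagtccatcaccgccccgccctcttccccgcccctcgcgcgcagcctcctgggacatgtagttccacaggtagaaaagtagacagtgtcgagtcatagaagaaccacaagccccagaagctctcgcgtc
Ulk2, chr11:61855043-61855342, minus strand: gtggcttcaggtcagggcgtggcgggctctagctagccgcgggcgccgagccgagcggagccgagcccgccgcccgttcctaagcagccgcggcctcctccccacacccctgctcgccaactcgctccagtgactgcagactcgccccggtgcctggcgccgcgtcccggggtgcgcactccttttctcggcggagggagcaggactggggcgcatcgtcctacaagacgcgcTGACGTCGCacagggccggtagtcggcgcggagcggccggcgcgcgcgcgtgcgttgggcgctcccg
Atg14, chr14:47568385-47568684, minus strand: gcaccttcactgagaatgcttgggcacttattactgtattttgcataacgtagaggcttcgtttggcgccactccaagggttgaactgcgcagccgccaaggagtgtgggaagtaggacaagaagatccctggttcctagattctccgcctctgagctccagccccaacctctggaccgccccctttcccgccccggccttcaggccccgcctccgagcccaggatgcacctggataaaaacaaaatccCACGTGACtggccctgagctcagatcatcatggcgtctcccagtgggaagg
Atg3, chr16:45158579-45158878, plus strand: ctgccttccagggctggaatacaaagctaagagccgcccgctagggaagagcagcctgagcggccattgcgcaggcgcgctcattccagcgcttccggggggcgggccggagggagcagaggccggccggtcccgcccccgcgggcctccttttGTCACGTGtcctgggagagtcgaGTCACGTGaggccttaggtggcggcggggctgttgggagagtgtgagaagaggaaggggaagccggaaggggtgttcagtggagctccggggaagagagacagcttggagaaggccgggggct
The Atg14 match reads in the opposite orientation and began 1 base before the start, and the Atg3 matches began 96 and 73 bases before it. GTCACGTG was found in 3 of the 33 windows (9.09%: Atg14, Atg3 and Atg7), beside 689 of the 27025 promoters in the table (2.55%). CACGTG alone, which every GTCACGTG contains, was in 4 windows (12.1%), beside 8.09% of all promoters, and TGACNNNGC was in 5 (15.2%: Atg13, Map1lc3b, Tax1bp1, Ulk2 and Vmp1), beside 14.0%. The genes with GTCACGTG did not move together: Atg14 rose, Atg3 fell, and Atg7 passed in no comparison.

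Within the ULK1 complex, the kinases rose and their partner Atg13 peaked at 4 dpi and fell. Ulk1 (ENSMUSG00000029512) stood at 9.12, 5.21 and 6.74 CPM in the 3 libraries of 1 dpi, 4.88, 6.67 and 6.24 at 2 dpi, 10.8, 14.9 and 19.7 at 4 dpi, and 22.1, 16.7 and 13.1 at 7 dpi. All libraries of 4 and 7 dpi were above all earlier ones. It rose from 2 to 4 dpi (log2FC = 1.35, SE 0.27, FDR = 0.00272) and did not pass from 4 to 7 dpi (log2FC = 0.19). Ulk2 (ENSMUSG00000004798), the second kinase of the family, which acts beside ULK1, gave 7.70, 6.28 and 5.40 CPM at 1 dpi, 10.7, 8.76 and 9.43 at 2 dpi, 13.9, 20.7 and 20.5 at 4 dpi, and 78.4, 41.0 and 37.7 at 7 dpi. No library overlapped with one of another time point, and replicate 1 of 7 dpi was highest by far. Ulk2 rose from 2 to 4 dpi (log2FC = 0.93, SE 0.26, FDR = 0.0209) and from 4 to 7 dpi (log2FC = 1.51, SE 0.26, FDR = 0.00137), and had the largest log2FC of the 40 genes between 1 and 7 dpi (3.03, SE 0.28, FDR = 7.13e-07). Its call from 2 to 4 dpi was lost without any one of 2 dpi replicate 2 or 3 or 4 dpi replicate 2 or 3, with an FDR of up to 0.0875. The ratio of Ulk2 to Ulk1, in CPM, was 0.950 ± 0.221 (SD, n = 3) at 1 dpi, then 1.67 ± 0.457 and 1.24 ± 0.179 at 2 and 4 dpi, and 2.96 ± 0.558 at 7 dpi, so that only at 7 dpi did all libraries lie above those of every other day.

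Atg13, the adaptor through which the kinases are held in the complex, was at 27.1, 26.8 and 27.7 CPM at 1 dpi, 38.8, 31.1 and 36.1 at 2 dpi, 40.5, 46.2 and 49.8 at 4 dpi, and 16.7, 19.5 and 32.0 at 7 dpi. Its libraries at 4 dpi were above those of every other day, and it fell from 4 to 7 dpi (log2FC = -1.002, SE 0.21, FDR = 0.00431). This value lies at the threshold of 1, and the gene was no DEG under some of the other settings. Atg101, which binds Atg13, had the highest level per kilobase of the complex (14.1 CPM per kb over all libraries) and passed in no comparison. Its libraries gave 29.1, 24.5 and 21.4 CPM at 1 dpi, 23.4, 20.01 and 18.6 at 2 dpi, 18.1, 22.3 and 19.7 at 4 dpi, and 33.8, 14.8 and 23.6 at 7 dpi, with the widest spread within the last day. Rb1cc1, which encodes the scaffold FIP200, ranged from 16.8 to 30.5 CPM up to 4 dpi and from 31.5 to 54.5 at 7 dpi (4 to 7 dpi log2FC = 0.69, SE 0.24, FDR = 0.0404), a call kept in 11 of 20 alternatives. Its rise from 1 to 7 dpi (log2FC = 0.80, SE 0.24, FDR = 0.0101) was kept in 19 of 20 and lost without 7 dpi replicate 1.

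**Figure D3:**
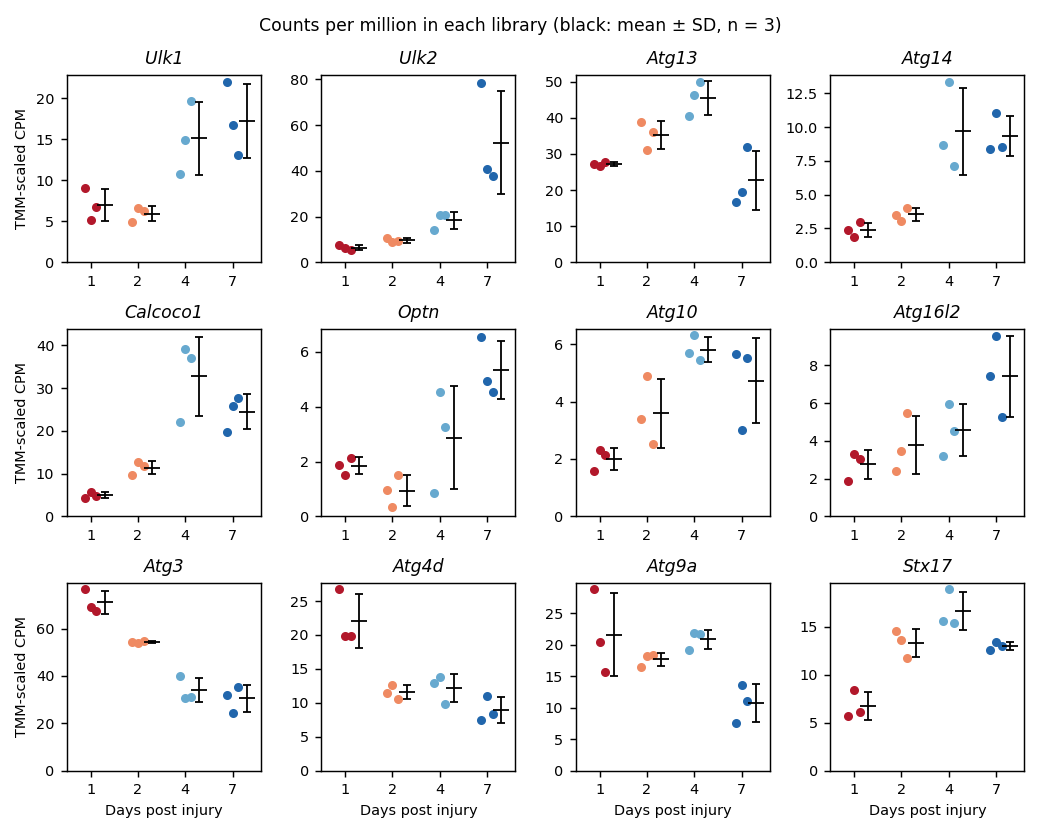
CPM (y-axis, linear, from 0) against days post injury (x-axis) for 12 autophagy genes, with a point for each library and the mean ± SD (n = 3) in black. Ulk2 separates all 4 days and ends at 37.7 to 78.4 CPM at 7 dpi, Calcoco1 and Atg14 have stepped up by 4 dpi, and Atg3 steps down to 30.8 to 39.9 CPM by 4 dpi.

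In the class III kinase complex, Atg14 changed most. ATG14 is the subunit that directs this kinase to sites of autophagosome formation, and Atg14 (ENSMUSG00000037526) was at 2.36, 1.89 and 2.95 CPM at 1 dpi, 3.53, 3.09 and 4.01 at 2 dpi, 8.65, 13.3 and 7.16 at 4 dpi, and 8.39, 11.1 and 8.54 at 7 dpi. Each of the first 3 time points was above the one before with no overlap, and 4 and 7 dpi overlapped. It rose from 2 to 4 dpi (log2FC = 1.45, SE 0.28, FDR = 0.00168), and the log2FC from 1 to 7 dpi was 1.96 (FDR = 4.23e-05). Uvrag encodes the subunit that takes the place of ATG14 in the endosomal form of the complex. Its mean level per kilobase was 4.88 CPM per kb against 1.45 for Atg14, with 31.7 to 76.5 CPM per library, and it rose from 1 to 7 dpi (log2FC = 0.69, SE 0.20, FDR = 0.00908). The ratio of Atg14 to Uvrag was 0.0686 ± 0.0178 (SD, n = 3) at 1 dpi, then 0.0998 ± 0.00884 and 0.198 ± 0.0545 at 2 and 4 dpi, and 0.168 ± 0.0200 at 7 dpi, and all libraries of 4 and 7 dpi lay above all of 1 and 2 dpi.

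Pik3r4, which encodes the regulatory subunit VPS15, rose and fell again. It ranged from 11.4 to 13.3 CPM at 1 dpi, then from 19.8 to 23.3 at 2 dpi and from 26.9 to 38.2 at 4 dpi, and finally from 16.6 to 19.1 at 7 dpi, without overlap between successive days. It passed in each step, with a log2FC of 0.76 (FDR = 0.012), 0.53 (FDR = 0.049) and -0.78 (FDR = 0.00659), but the call from 2 to 4 dpi was kept in only 11 of 20 alternatives and that from 1 to 2 dpi did not hold if 1 dpi replicate 3 or 2 dpi replicate 2 was left out. The catalytic subunit gene Pik3c3 (VPS34) ranged from 8.12 to 18.0 CPM and passed over the whole course (FDR = 0.0217) and, of the comparisons of days, only from 1 to 7 dpi (log2FC = 0.58, SE 0.20, FDR = 0.0209). That call needed both 1 dpi replicate 3 and 7 dpi replicate 3. It was also lost without the low-count filter and in a fit of the 6 libraries compared alone. Becn1, which encodes Beclin 1 and had the highest level per kilobase of the complex (5.62 CPM per kb), gave 51.4, 42.7 and 40.4 CPM at 1 dpi, 34.4, 39.9 and 41.4 at 2 dpi, 38.2, 46.5 and 45.7 at 4 dpi, and 28.4, 26.1 and 41.2 at 7 dpi. The first and last days overlapped, and its decrease between them (log2FC = -0.49, SE 0.19, FDR = 0.0474) was kept in 4 of 20 alternatives. Ambra1, a regulator of Beclin 1, lay between 10.3 and 17.6 CPM and passed in no comparison.

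Among the genes for lipid supply and PI3P binding, changes went both ways. Atg9a, which encodes the scramblase of the vesicles that seed the membrane, was at 28.8, 20.4 and 15.6 CPM at 1 dpi, 16.5, 18.2 and 18.3 at 2 dpi, 19.1, 21.8 and 21.6 at 4 dpi, and 7.50, 13.5 and 11.1 at 7 dpi. All libraries of 7 dpi were below all others. It fell from 4 to 7 dpi (log2FC = -0.96, SE 0.24, FDR = 0.00936) and, from 1 to 7 dpi, by 1.01 on the log2 scale (FDR = 0.00245). Its overlapping opposite-strand neighbour Ankzf1 had 1413 counts against 5243 for Atg9a and did not pass from 4 to 7 dpi (log2FC = -0.02). Vmp1, an ER scramblase gene and the most abundant of this role per kilobase (23.7 CPM per kb), gave 137, 114 and 136 CPM at 1 dpi, 81.4, 85.4 and 85.2 at 2 dpi, 78.4, 77.6 and 69.3 at 4 dpi, and 49.1, 110 and 74.2 at 7 dpi. Its 1 dpi libraries were the highest of all, and it was lower at 7 than at 1 dpi (log2FC = -0.73, SE 0.23, FDR = 0.0134), which no longer passed without 1 dpi replicate 1 or 3 or 7 dpi replicate 1.

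Atg2a, which encodes a lipid transfer protein that feeds the growing membrane, dipped at 2 dpi. It ranged from 18.5 to 27.4 CPM at 1 dpi, then from 12.1 to 13.5 at 2 dpi, and from 19.8 to 28.5 and 23.4 to 37.6 on the later days, and 2 dpi did not overlap with any other day. It fell from 1 to 2 dpi (log2FC = -0.89, FDR = 0.0134), not passing without 1 dpi replicate 3 or 2 dpi replicate 1 or 2, and rose from 2 to 4 dpi (log2FC = 0.94, FDR = 0.00641). Its paralogue Atg2b stayed between 6.92 and 14.4 CPM and passed in no comparison. Gskip, which overlaps Atg2b on the opposite strand with 5243 counts against 3477, also passed in none. As strand is not kept, the signals of this pair cannot be told apart. Wipi1, which encodes a PI3P-binding protein, had a shape opposite to that of Atg2a, at 7.75 to 10.7 CPM at 1 dpi and 16.0 to 17.8 at 2 dpi (log2FC = 0.88, SE 0.23, FDR = 0.0178), a call that was lost without any one of 5 of the 6 libraries compared. Wipi2, the paralogue that recruits the conjugation machinery, lay between 15.9 and 30.9 CPM and passed only the test over the whole course (FDR = 0.0199).

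The conjugation genes did not share a direction, and Atg3 fell while Atg10 and Atg16l1 ended higher. The counts of Atg16l2 also ended higher, but its signal cannot be told apart from that of an overlapping gene. Atg3 (ENSMUSG00000022663) encodes the E2-like enzyme that transfers ATG8 proteins to lipid, and it was at 76.8, 69.2 and 67.5 CPM at 1 dpi, 54.2, 54.0 and 54.9 at 2 dpi, 39.9, 30.8 and 31.3 at 4 dpi, and 32.1, 24.3 and 35.3 at 7 dpi. The first 3 time points did not overlap. It fell from 2 to 4 dpi (log2FC = -0.68, SE 0.18, FDR = 0.014), the only decrease among the 12 calls of that step, which did not pass if 2 dpi replicate 1 or 3 or 4 dpi replicate 2 or 3 was left out. From 1 to 7 dpi the log2FC was -1.22 (SE 0.18, FDR = 4.69e-05), kept in all 20 alternatives.

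The other E2-like gene moved the opposite way. Atg10, whose product joins ATG12 to ATG5, was at 1.57, 2.30 and 2.12 CPM at 1 dpi, 3.38, 4.88 and 2.51 at 2 dpi, 5.69, 6.30 and 5.44 at 4 dpi, and 5.67, 3.02 and 5.51 at 7 dpi. All later libraries were above those of 1 dpi, and it passed from 1 to 7 dpi (log2FC = 1.23, SE 0.33, FDR = 0.00566) though in no single step. Atg16l2, the paralogue of Atg16l1, gave 1.89, 3.32 and 3.05 CPM at 1 dpi, 2.40, 3.48 and 5.45 at 2 dpi, 3.21, 5.95 and 4.52 at 4 dpi, and 7.42, 9.55 and 5.29 at 7 dpi. The first and last days did not overlap (1 to 7 dpi log2FC = 1.41, SE 0.36, FDR = 0.00382). The library type does not keep the strand, and Fchsd2, which overlaps Atg16l2 on the opposite strand with 5437 counts against 1572, also rose (1 to 7 dpi log2FC = 1.67, FDR = 7.53e-05), so the signals of this pair cannot be told apart. Atg16l1, the subunit that sets the place of conjugation, ranged from 5.34 to 10.2 CPM up to 4 dpi and from 10.3 to 13.8 at 7 dpi (4 to 7 dpi log2FC = 0.73, SE 0.23, FDR = 0.0309), a call kept in 12 of 20 alternatives. Its call from 1 to 7 dpi (log2FC = 0.66, FDR = 0.0275) was kept in 15 of 20.

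The core conjugation genes Atg5 and Atg7 passed in no comparison. Atg5, whose product forms the conjugate with ATG12 and which led this role per kilobase (15.7 CPM per kb), gave 36.9, 33.3 and 28.9 CPM at 1 dpi, 32.8, 37.1 and 35.9 at 2 dpi, 44.0, 49.6 and 38.8 at 4 dpi, and 38.2, 26.7 and 41.0 at 7 dpi. Its 4 dpi libraries were above those of 1 and 2 dpi, and overlapped with those of 7 dpi. Atg7, the E1-like enzyme gene, stayed between 31.6 and 44.4 CPM in all libraries. Atg12 lay between 16.8 and 21.4 CPM at 1 and 2 dpi and between 24.8 and 38.0 at 4 dpi, and passed only over the whole course (FDR = 0.0461).

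All 4 genes of ATG4 proteases had a lower mean at 7 than at 1 dpi, and 3 of them passed, beside 23.3% of all genes called lower in that comparison. Their median log2FC from 1 to 7 dpi was -0.63, the lowest of the 8 roles. Atg4d was at 26.7, 19.8 and 19.8 CPM at 1 dpi, 11.4, 12.6 and 10.6 at 2 dpi, 12.9, 13.8 and 9.83 at 4 dpi, and 7.42, 11.03 and 8.39 at 7 dpi. The 1 dpi libraries were above all later ones. It fell from 1 to 2 dpi (log2FC = -0.94, SE 0.22, FDR = 0.00863), a call lost without 2 dpi replicate 3 (FDR = 0.0533), and its log2FC from 1 to 7 dpi was -1.30 (SE 0.22, FDR = 0.000134). Its opposite-strand neighbour Kri1, with 1426 counts against 3998, had a log2FC of -0.63 from 1 to 7 dpi that did not pass (FDR = 0.107).

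Atg4c, which led the family per kilobase (4.87 CPM per kb), gave 27.1, 15.4 and 20.2 CPM at 1 dpi, 12.5, 12.8 and 15.1 at 2 dpi, 18.3, 17.6 and 16.2 at 4 dpi, and 12.7, 13.6 and 14.2 at 7 dpi. The first and last days did not overlap (log2FC = -0.63, SE 0.20, FDR = 0.0185), but the call was not kept if 1 dpi replicate 1 or 3 or 7 dpi replicate 1 was left out. Atg4b, the protease with the broadest activity on ATG8 proteins, went from 26.1 to 29.5 CPM at 1 dpi to 15.7 to 20.7 at 7 dpi (log2FC = -0.63, SE 0.17, FDR = 0.00541). Atg4a differed, with its highest range at 2 dpi (13.7 to 15.2 CPM) and 5.33 to 11.6 CPM at 7 dpi, and passed only over the whole course (FDR = 0.0309).

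In the ATG8 family the LC3 genes rose and Gabarap fell. Gabarap (ENSMUSG00000018567) had the highest level per kilobase of the 40 genes (153 CPM per kb). It was at 445, 347 and 346 CPM at 1 dpi, 285, 276 and 287 at 2 dpi, 290, 338 and 280 at 4 dpi, and 211, 109 and 170 at 7 dpi, and the last day was below all others in every library. It fell from 4 to 7 dpi (log2FC = -0.89, SE 0.22, FDR = 0.00914), which did not pass in a fit of these 6 libraries alone (FDR = 0.061), and its log2FC from 1 to 7 dpi was -1.21 (SE 0.22, FDR = 0.000283). Short genes as a group leaned in that direction. Of 4 groups of all genes by exonic length, the shortest, to which Gabarap belongs, had a median log2FC of -0.19 from 4 to 7 dpi and the longest 0.23, and the part of length in the change of Gabarap was not tested.

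Map1lc3b (ENSMUSG00000031812), which encodes LC3B, the protein most often used as a marker of autophagosomes, was at 84.2, 65.3 and 61.5 CPM at 1 dpi, 72.5, 72.1 and 75.3 at 2 dpi, 112, 171 and 139 at 4 dpi, and 124, 91.9 and 122 at 7 dpi. All libraries of 4 and 7 dpi were above all earlier ones, and it rose from 2 to 4 dpi (log2FC = 0.94, SE 0.20, FDR = 0.00329), a call kept in all 20 alternatives. Its opposite-strand neighbour Zcchc14, with 803 counts against 32056, did not pass in that step (log2FC = -0.41) but rose from 4 to 7 dpi (log2FC = 2.82, FDR = 0.000614) and from 1 to 7 dpi (log2FC = 2.77, FDR = 6.18e-05), and without strand its part in the Map1lc3b signal at 7 dpi was not tested. Map1lc3a, which encodes LC3A, gave 7.23, 4.97 and 3.69 CPM at 1 dpi, 4.36, 3.58 and 4.30 at 2 dpi, 6.71, 14.7 and 8.43 at 4 dpi, and 18.8, 8.84 and 10.3 at 7 dpi. It rose from 2 to 4 dpi (log2FC = 1.28, SE 0.34, FDR = 0.015), without overlap between the days, but not when 2 dpi replicate 2 or 4 dpi replicate 2 was left out (FDR up to 0.116). Gabarapl1 went from 17.5 to 17.9 CPM at 2 dpi to 20.8 to 49.7 at 4 dpi (log2FC = 0.89, SE 0.26, FDR = 0.0236), with the highest value in replicate 2, without which it did not pass, nor without any one 2 dpi library. Gabarapl2 stayed between 12.3 and 19.5 CPM and passed in no comparison.

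Set per kilobase, Gabarap made up 86.8% ± 0.915 (SD, n = 3) of the summed level of the 5 ATG8 genes at 1 dpi, then 84.1% ± 0.135 and 76.6% ± 3.87 at 2 and 4 dpi, and 64.2% ± 5.53 at 7 dpi, with no overlap between successive days. The share of Map1lc3b was 3.94% ± 0.156, 5.35% ± 0.0797, 8.65% ± 0.905 and 11.1% ± 1.10, again without overlap. In CPM, the ratio of Map1lc3b to Gabarap went from 0.185 ± 0.00641 at 1 dpi over 0.259 ± 0.00414 and 0.462 ± 0.0670 to 0.714 ± 0.127 at 7 dpi, higher at each later day in all libraries. No test was made of these shares and ratios, which do not depend on the scaling between libraries. The shares do depend on the gene length used, the union of all annotated exons, at 7517 bp for Map1lc3b and 1844 bp for Gabarap. Map1lc3b belongs to the longest length group and Gabarap to the shortest, and the part of length in these changes was not tested. Gabarap remained the most abundant ATG8 gene per kilobase on every day.

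**Figure D4:**
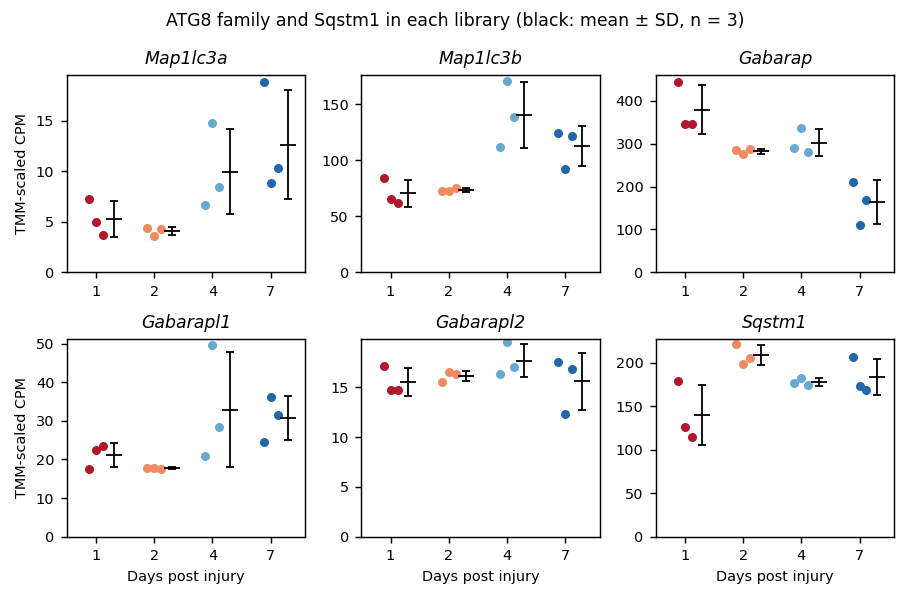
CPM (y-axis, linear, from 0) against days post injury (x-axis) for the 5 genes of the ATG8 family and Sqstm1, with a point for each library and the mean ± SD (n = 3) in black. Map1lc3b lies between 61.5 and 84.2 CPM at 1 and 2 dpi and between 91.9 and 171 CPM later, while Gabarap falls from 346 to 445 CPM at 1 dpi to 109 to 211 CPM at 7 dpi.

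Among the cargo receptors, Calcoco1 rose in both of the first steps. CALCOCO1 is an ATG8-binding receptor known for the turnover of endoplasmic reticulum and Golgi membranes, and Calcoco1 (ENSMUSG00000023055) was at 4.40, 5.75 and 4.89 CPM at 1 dpi, 9.69, 12.6 and 11.8 at 2 dpi, 22.1, 39.1 and 37.1 at 4 dpi, and 19.9, 25.8 and 27.8 at 7 dpi. The first 3 time points did not overlap. It rose from 1 to 2 dpi (log2FC = 1.17, SE 0.24, FDR = 0.00373) and from 2 to 4 dpi (log2FC = 1.53, SE 0.23, FDR = 0.000281), did not pass from 4 to 7 dpi (log2FC = -0.42), and ended with a log2FC of 2.28 over 1 dpi (FDR = 2.19e-06). The 3 calls were kept in all 20 alternatives.

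Optn, which encodes optineurin, a receptor for ubiquitin-coated bacteria and mitochondria, was scarce, at 1.89, 1.52 and 2.12 CPM at 1 dpi, 0.977, 0.348 and 1.51 at 2 dpi, 0.847, 4.53 and 3.25 at 4 dpi, and 6.53, 4.93 and 4.55 at 7 dpi. Replicate 1 of 4 dpi lay among the 2 dpi libraries, and the 7 dpi libraries were above all others. From 2 to 4 dpi it passed narrowly (log2FC = 1.56, SE 0.54, FDR = 0.0499) and in only 7 of 20 alternatives. The difference between 1 and 7 dpi (log2FC = 1.54, SE 0.52, FDR = 0.0219) did not pass if 1 dpi replicate 2 or 7 dpi replicate 1 was left out.

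Sqstm1, which encodes p62, the receptor that gathers ubiquitinated proteins, was the most abundant receptor per kilobase (52.8 CPM per kb) and passed in no comparison. It was at 179, 126 and 114 CPM at 1 dpi, 222, 199 and 206 at 2 dpi, 177, 182 and 174 at 4 dpi, and 207, 173 and 169 at 7 dpi. The 2 dpi libraries were above those of 1 dpi, with a log2FC of 0.58 (SE 0.19) at an FDR of 0.0512. Nbr1, a receptor related to p62, had the same order of days as Calcoco1, at 35.4 to 47.2 CPM at 1 dpi, then 48.7 to 57.3 and 70.9 to 89.7 at 2 and 4 dpi, and 57.4 to 74.5 at 7 dpi. It rose from 2 to 4 dpi (log2FC = 0.59, SE 0.18, FDR = 0.0276), a call kept in 14 of 20 alternatives. Tax1bp1, another receptor for ubiquitinated cargo, stayed between 92.8 and 137 CPM with no call.

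Stx17 and Epg5 act at the fusion of autophagosome and lysosome. Stx17, a SNARE gene and the more abundant per kilobase (2.09 CPM per kb), was at 5.66, 8.41 and 6.14 CPM at 1 dpi, 14.6, 13.6 and 11.8 at 2 dpi, 15.6, 18.9 and 15.4 at 4 dpi, and 12.6, 13.5 and 12.9 at 7 dpi. All later libraries were above those of 1 dpi, the step from 1 to 2 dpi passed (log2FC = 0.98, SE 0.20, FDR = 0.0045), and the later steps did not. Epg5, which encodes a tether for that fusion, lay between 7.11 and 12.0 CPM up to 4 dpi and between 8.79 and 15.1 at 7 dpi and passed in no comparison.

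Other genes of the pathway were taken from 3 lists of further core factors (30 tested), further receptors (22) and upstream regulators (43). Of these 95 genes, 11 were higher and 6 lower at 2 than at 1 dpi (FDR under 0.05). In the step to 4 dpi 23 were higher and 7 lower, in the step to 7 dpi 7 were higher and 21 lower, and between the first and last days 32 were higher and 29 lower. The shares of all genes were 6.89% and 5.6%, 10.8% and 8.7%, 10.9% and 14.6%, and 25% and 23.3%, in the same order, so that the larger of each pair of directions was the same over all genes. Their median log2FC was 0.20 from 2 to 4 dpi (0.04 over all genes) and -0.26 from 4 to 7 dpi (-0.03). Over the whole course 72 passed (75.8%, beside 61.5% of all genes). The 3 lists were written by hand with earlier results of these data known. The part of that choice in these shares and medians was not tested.

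Several genes of mitophagy and of selective receptors were DEGs. Pink1, the kinase gene that marks damaged mitochondria, went from 17.8 to 22.1 CPM at 2 dpi to 54.1 to 183 at 4 dpi (log2FC = 2.56, SE 0.33, FDR = 6.51e-05). Ncoa4, the receptor gene for ferritin, went from 13.6 to 16.9 CPM to 33.9 to 57.9 in the same step (log2FC = 1.67, SE 0.22, FDR = 8.93e-05), and the mitophagy receptor gene Bnip3l from 46.6 to 60.1 CPM to 89.8 to 123 (log2FC = 1.11, SE 0.26, FDR = 0.00712). Bnip3, its paralogue and a gene known to respond to hypoxia, did not pass in that step (log2FC = 0.34, FDR = 0.611). Between the first and last days Bnip3 fell, from 112, 34.0 and 35.9 CPM at 1 dpi to 7.21 to 10.6 at 7 dpi (log2FC = -2.77, SE 0.44, FDR = 8.64e-05). Of the further core factors, Trp53inp1, whose product binds ATG8 proteins, rose in both of the first steps (log2FC = 1.15, FDR = 0.00225, and log2FC = 1.77, FDR = 3.35e-05). Zfyve1, which encodes the PI3P-binding protein DFCP1, rose from 2 to 4 dpi (log2FC = 1.64, FDR = 8.93e-05), and the SNARE gene Ykt6 fell from 4 to 7 dpi (log2FC = -1.34, FDR = 0.000614).

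Upstream, Sesn1, which encodes a stress-induced inhibitor of mTORC1, rose from 16.3 to 19.2 CPM at 1 dpi to 34.7 to 46.9 at 2 dpi (log2FC = 1.21, FDR = 0.000558) and 75.5 to 110 at 4 dpi (log2FC = 1.08, FDR = 0.000807). Deptor, another mTOR inhibitor gene, rose from 2 to 4 dpi (log2FC = 1.17, FDR = 0.00288). Ddit4, a hypoxia- and stress-induced inhibitor gene of the same pathway, fell from 18.3 to 44.5 CPM at 1 dpi to 7.17 to 7.51 at 2 dpi (log2FC = -1.95, FDR = 0.00024). Tfec, of the MiT/TFE family, fell in the same step (log2FC = -1.98, FDR = 0.000217) and rose again from 2 to 4 dpi (log2FC = 0.99, FDR = 0.0159). Tfeb, Tfe3 and Mitf, of the same family, did not pass from 1 to 2 dpi. From 1 to 7 dpi Tfeb rose (log2FC = 0.97, FDR = 0.00632), Tfec and Tfe3 fell (log2FC = -1.13, FDR = 0.0021, and log2FC = -0.51, FDR = 0.0294), and Mitf did not pass.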

How the data were processed

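Per the submitters' processing notes, the authors used Trim Galore 0.6.6 for trimming, HISAT2 2.2.1 with GRCm39 for alignment and Subread 2.0.1 for counting. The deposited values are raw counts per gene in 12 libraries, with 0 columns of other samples. Libraries were made with the Smart-seq2/3 protocol, in which cDNA is primed with oligo-dT and strand is lost. How read pairs and reads with several matches were counted is not given in the sources used here, so genes with near-identical copies, as the ATG8 genes may have, are uncertain to that extent. A GRCm38 annotation, matched on Ensembl IDs, gave the exonic lengths and a symbol for 52081 of 55414 IDs.

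The tests were run with edgeR 4.0.16 in R 4.3.3. After filterByExpr, 14310 genes remained, which were TMM-scaled and fitted over all 12 libraries with time point as the only factor. The quasi-likelihood F test compared 1 with 2, 2 with 4, 4 with 7 and 1 with 7 dpi, and all time points together, with Benjamini-Hochberg adjustment over all genes within each comparison. A gene passed at an FDR under 0.05, and DEGs also had an absolute log2FC above 1. Levels are TMM-scaled CPM. The fit itself used counts, and a prior count of 2 was used only for the log2 CPM behind the correlations between libraries. The method was tested on simulated data.

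Values in every library are given for each of the 40 genes that was a DEG in any comparison and for the gene with the highest mean count per kilobase in each role. From each further list, at most 6 DEGs of a successive step with the smallest P of the time-course test could be named, and not all of them are given. Outside that rule, Tfeb, Tfe3 and Mitf are given beside Tfec. The genes and lists were chosen with earlier results of these data known. As alternatives, the low-count filter was left out or set to a CPM above 1 in at least 3 libraries. Others were RLE factors, DESeq2 1.42.0, limma-voom (limma 3.58.1), the replicate number as a block, the 6 libraries compared alone and each library left out in turn. Leaving out 4 dpi replicate 1 and 7 dpi replicate 2 together was added after the data were seen.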

Additional observations from a re-analysis of the deposited data

How the results depend on the processing

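No change of sign was found for a gene called in the main fit. Counting each gene, comparison and alternative, 3028 results kept their side of the threshold, 111 lost the call and 61 gained it. All 20 alternatives kept 2 of the 6 calls from 1 to 2 dpi (Calcoco1 and Stx17), 5 of 12 from 2 to 4 dpi (Ulk1, Atg14, Atg2a, Map1lc3b and Calcoco1), 3 of 7 from 4 to 7 dpi (Ulk2, Atg13 and Atg9a) and 16 of 24 from 1 to 7 dpi. With only the 6 libraries compared, 12 genes in place of 6 passed from 1 to 2 dpi, and 3 in place of 7 from 4 to 7 dpi, where 1 in place of 2 was a DEG. From 4 to 7 dpi there was also 1 DEG with the CPM filter, with RLE factors and with DESeq2, and there were 4 with limma-voom. Leaving out 4 dpi replicate 1 and 7 dpi replicate 2, a choice made after seeing the data, gave 11 genes from 1 to 2 dpi and 9 DEGs in place of 5 from 2 to 4 dpi. Leaving aside the gene without a symbol, mitochondrial genes took 18.9% of counts in 7 dpi replicate 2, beside 6.62% and 9.47% in replicates 1 and 3. At 4 dpi they took 6.26% in replicate 1, beside 12.5% and 11.4% in replicates 2 and 3. The part of these differences in the values of both days was not tested.

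With each library left out in turn, 3 to 9 genes passed from 1 to 2 dpi, 5 to 12 from 2 to 4 dpi, 5 to 11 from 4 to 7 dpi, 18 to 26 from 1 to 7 dpi and 24 to 32 over the whole course, and DEGs numbered 1 to 3, 3 to 9, 1 to 3 and 9 to 13. The low counts came without 1 dpi replicate 3 or 2 dpi replicate 2 (3 genes, 1 to 2 dpi) and without 4 dpi replicate 2 (5 genes, 2 to 4 dpi), there were 3 DEGs from 2 to 4 dpi without either 2 dpi replicate 2 or 4 dpi replicate 2, and 7 genes or fewer passed from 2 to 4 dpi without any one 2 dpi library or without 4 dpi replicate 3. Without 4 dpi replicate 1 there were 9 DEGs from 2 to 4 dpi, and without 7 dpi replicate 3 there were 11 genes from 4 to 7 dpi. In these fits the spread was pooled over all time points.

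Libraries of the same replicate number did not deviate together, with a mean correlation of 0.0207 over 18 pairs (-0.133 to 0.127) and 1 pair above 0.1. Libraries of different number gave a mean of -0.0106 over 36 pairs (-0.221 to 0.265), with 3 above 0.1. The numbers were therefore not read as pairs, and a batch shared across other numbers was not tested. With the replicate number as a block, 7, 10, 6 and 24 genes passed from 1 to 2, 2 to 4, 4 to 7 and 1 to 7 dpi and 29 over the whole course, and 1, 4, 2 and 12 were DEGs. Depth limits the genes with few counts, such as Optn, with 949 counts over all libraries, Atg16l2 (1572) and Atg14 (2129).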
